A study of Homo sapiens with 91 samples.

Results

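KI-CDK9d-32, a molecule that causes degradation of the kinase CDK9, was set directly against KB-0742, a molecule that inhibits the same kinase, in MOLT4 cells 8 h after treatment. MOLT4 is an established human line from acute lymphoblastic leukemia of the T lineage. The comparison holds 8 of the 91 libraries of the series, taken by their labels: 4 of MOLT4 cells with KI-CDK9d-32 at 8 h and 4 of MOLT4 cells with KB-0742 at 8 h. A further 4 libraries of MOLT4 cells with DMSO vehicle at 8 h give the untreated level. All 3 groups share the line, the medium (RPMI with 10% fetal bovine serum), the seeding of 1000 cells and the time. The labels give no dose for either compound, so the doses are not known to be matched, and each group is 1 line. The study as a whole treated 3 lines (MOLT4, PSN1 and RH4) for 2, 4 or 8 h. Its design text writes RH1 where the sample labels say RH4. The protocol speaks of biological replicates but does not say whether they were separate cultures, so the p-values measure only the spread between these libraries.

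CDK9 with a cyclin T forms P-TEFb, the kinase that releases RNA polymerase II from its pause near the start of genes by phosphorylating the polymerase, NELF and DSIF. Part of the cell's P-TEFb is held inactive on the noncoding RNA 7SK by HEXIM1, and cells short of P-TEFb activity are known to adjust HEXIM1 and the cyclins. mRNAs with short lives, such as those of MYC, early response genes and many regulators, depend most on continued transcription. An inhibitor leaves the kinase protein in place, whereas a degrader removes it.

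Levels are counts per 1000000 counts on genes after TMM scaling (CPM), and changes are log2 fold changes of KI-CDK9d-32 over KB-0742 ± standard error, so a positive value means higher with KI-CDK9d-32. They come from edgeR's quasi-likelihood test with TMM, a scaling that sets each gene against the other genes of the same libraries, and a gene is called at a Benjamini-Hochberg adjusted p under 0.05. Gene counts summed to 1598283 to 2719558 per KI-CDK9d-32 library, 2428229 to 2897127 per KB-0742 library and 2233383 to 2705537 per DMSO library. The 22 markers of T-lineage leukemia were counted in all 3 groups, and their summed level was 4031 to 4592 CPM with KI-CDK9d-32, 2429 to 2744 CPM with KB-0742 and 3233 to 3416 CPM with DMSO. Epithelial markers summed to 0.61 to 8.19 CPM with KI-CDK9d-32, 1.36 to 3.80 CPM with KB-0742 and 1.87 to 16.6 CPM with DMSO. B-lineage and myeloid markers, MPO among them, summed to 20.3 to 34.5 CPM, 3.14 to 7.22 CPM and 3.74 to 8.72 CPM in the same order. Replicates differed by 3.38 to 11.3 times the counting error (chi-square per degree of freedom), so no library was a copy of another. The median SD of log2 CPM over genes was 0.52 among KI-CDK9d-32 libraries and 0.38 among KB-0742 libraries.

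The compounds left MOLT4 cells with very different RNA at 8 h. Of 11664 genes tested, 6823 were called (58.5%), with 3374 higher (28.9%) and 3449 lower (29.6%) with KI-CDK9d-32 than with KB-0742. In 5099 genes (43.7%) the 4 KI-CDK9d-32 libraries did not overlap the 4 KB-0742 libraries. The share of called genes had been 18.3% at 2 h and 35.7% at 4 h. Against DMSO at 8 h, 49.6% of genes were called for KI-CDK9d-32 and 49.2% for KB-0742, and these 2 comparisons share the DMSO libraries.

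Every lysate had received an equal amount of synthetic ERCC and SIRV RNA, which takes a larger part of the counts where the lysate holds less RNA of its own. It took 37.0, 33.0, 61.5 and 28.1% of all counts in the KI-CDK9d-32 libraries, against 24.9, 20.2, 21.8 and 18.9% with KB-0742 and 15.2, 15.8, 15.4 and 11.7% with DMSO. Every KI-CDK9d-32 library was above every KB-0742 library, and replicate 3 stood far above the other KI-CDK9d-32 libraries. The KI-CDK9d-32 mean of 39.9 ± 14.8% and the KB-0742 mean of 21.5 ± 2.59% (SD, n = 4 each) gave a difference of 18.4 percentage points (two-sided exact permutation test, p = 0.0286, the smallest that 70 arrangements allow). Fewer cells and less RNA per cell cannot be told apart in these bulk lysates. When libraries were scaled by the spike-in counts instead of TMM, the median log2 fold change of all genes was -1.46 in place of 0.04, and 274 genes were called higher and 6390 lower. Without KI-CDK9d-32 replicate 3 that median was -1.17. TMM values below are therefore relative to the typical gene, and spike-in values are to be read against -1.46. Comparisons with DMSO below were made under TMM alone, while both compounds had higher spike-in shares than DMSO in every library. A rise over DMSO is thus a rise relative to other genes, and its size per spike-in was not tested. Of the 40 gene lists with a tested member, 39 held a gene called higher under TMM and 10 with spike-ins. List counts under TMM below are to be read beside 28.9% higher and 29.6% lower over all genes.

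**Figure D1:**
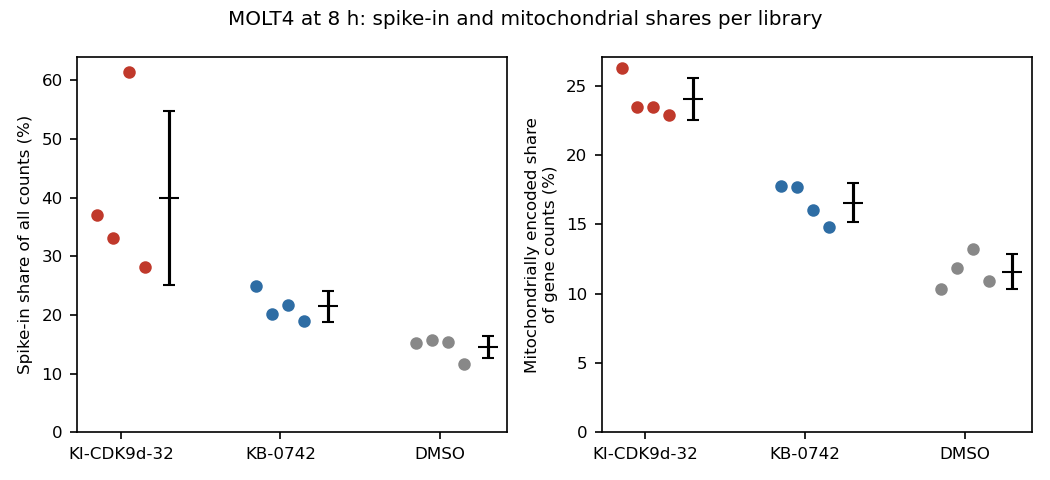
Share of all counts from ERCC and SIRV spike-ins (left, %) and share of gene counts from the mitochondrial genome (right, %) in each MOLT4 library at 8 h. Points are libraries and bars are mean ± SD (n = 4). The KI-CDK9d-32 libraries are above all KB-0742 and DMSO libraries in both panels.

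The RNA of P-TEFb was divided, with its kinase and cyclin subunits lower and its inhibitory partners HEXIM1 and 7SK higher with KI-CDK9d-32 than with KB-0742. CDK9 (chr9:127785679-127790787, GRCh38) had 4.59, 6.71, 13.8 and 12.9 CPM in the KI-CDK9d-32 libraries, against 20.8, 21.999, 11.7 and 23.9 CPM with KB-0742 and 8.99, 9.66, 5.99 and 10.4 CPM with DMSO. The compounds overlapped in 1 place, where replicates 3 and 4 with KI-CDK9d-32 exceeded replicate 3 with KB-0742. The fold change was -1.07 ± 0.32 (adjusted p = 0.00402). Against DMSO, CDK9 mRNA was at 0.09 ± 0.33 with KI-CDK9d-32 (adjusted p = 0.84) and rose by 1.16 ± 0.30 with KB-0742 (adjusted p = 0.00118). These values are mRNA and do not measure CDK9 protein.

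CCNT1, the main cyclin T, had 31.5, 36.6, 19.4 and 15.8 CPM with KI-CDK9d-32, against 79.1, 67.6, 33.7 and 44.1 CPM with KB-0742 and 14.99, 14.3, 15.5 and 12.9 CPM with DMSO. CCNT2, the other cyclin T, had 11.1, 13.4, 14.8 and 16.4 CPM, against 41.6, 27.2, 34.2 and 37.996 CPM and 5.45, 6.23, 4.23 and 5.18 CPM in the same order. The 3 groups of CCNT2 were apart from each other, with DMSO lowest and KB-0742 highest. Both were lower, with log2 fold changes of -1.10 ± 0.24 for CCNT1 (adjusted p = 0.000108) and -1.34 ± 0.28 for CCNT2 (adjusted p = 7.23e-05). Under TMM each cyclin rose over DMSO with both compounds, CCNT1 by 0.85 under KI-CDK9d-32 and 1.95 under KB-0742, and CCNT2 by 1.39 and 2.73. These rises were not tested with spike-in scaling.

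HEXIM1, which keeps P-TEFb inactive, had 24.2, 26.9, 36.9 and 7.604 CPM with KI-CDK9d-32, against 4.07, 1.57, 6.74 and 5.32 CPM with KB-0742 and 16.1, 16.2, 25.4 and 15.2 CPM with DMSO. The KB-0742 libraries were below all others, and the fourth KI-CDK9d-32 library lay close above them. Its fold change was 2.37 ± 0.38 (adjusted p = 7.07e-07), with 0.67 and no call under spike-in scaling. Per transcript length, in the authors' TPM values rescaled over genes, HEXIM1 was at 3.16 ± 1.63 TPM with KI-CDK9d-32 beside CCNT1 at 1.77 ± 0.736 TPM, and at 0.798 ± 0.433 TPM with KB-0742 beside CCNT1 at 4.98 ± 1.54 TPM (SD, n = 4). The noncoding RNA 7SK had 1034, 562, 452 and 546 CPM with KI-CDK9d-32, against 78.1, 67.04, 43.2 and 61.2 CPM with KB-0742 and 29.4, 26.5, 28.2 and 29.8 CPM with DMSO, a fold change of 3.38 ± 0.24 (adjusted p = 2.7e-13). 7SK is not polyadenylated, and this protocol primes cDNA at poly(A), so its level and its priming cannot be told apart. MEPCE, which caps and holds 7SK, was lower at 2.69 CPM against 9.86 CPM (-1.73 ± 0.52).

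Of 9 tested members of the P-TEFb and 7SK particle, 2 rose and 5 fell, with a median log2 fold change of -0.60 beside 0.04 over all genes tested. POLR2A, the catalytic subunit of RNA polymerase II, had 131, 97.03, 98.7 and 125 CPM with KI-CDK9d-32, against 71.8, 59.2, 54.8 and 48.3 CPM with KB-0742 and 128, 98.8, 101 and 131 CPM with DMSO. The KI-CDK9d-32 libraries overlapped DMSO and not KB-0742, and the fold change was 0.96 ± 0.16 (adjusted p = 9.64e-07) under TMM but -0.48 under spike-in scaling, the opposite direction. Among 13 polymerase II subunits 4 rose and 5 fell (median -0.10), beside 28.9% and 29.6% of all genes. POLR2B, the other large subunit, fell (-1.48 ± 0.16), as did POLR2M (-1.72 ± 0.32).

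The promoters of 6 genes are shown because they stand for the classes of response described here. HEXIM1, FOS and H2AC6 were higher with KI-CDK9d-32, and SRSF3, CCNL1 and GRWD1 were lower. Each is the 300-base window of RefSeq (GRCh38.p14) from 250 bases before to 50 after the transcription start, read on the strand of the gene. They lie at chr17:45148225-45148524 (plus strand), chr14:75278578-75278877 (plus), chr6:26123922-26124221 (plus), chr6:36594112-36594411 (plus), chr3:157160098-157160397 (minus) and chr19:48445733-48446032 (plus). Capitals mark every match to the 5 motifs searched on both strands: TATAAA (the TATA box), CCAAT, TGACGTCA (a cyclic AMP response element), CACGTG (the E-box bound by MYC-MAX) and CCGGAAG (an ETS site).
HEXIM1: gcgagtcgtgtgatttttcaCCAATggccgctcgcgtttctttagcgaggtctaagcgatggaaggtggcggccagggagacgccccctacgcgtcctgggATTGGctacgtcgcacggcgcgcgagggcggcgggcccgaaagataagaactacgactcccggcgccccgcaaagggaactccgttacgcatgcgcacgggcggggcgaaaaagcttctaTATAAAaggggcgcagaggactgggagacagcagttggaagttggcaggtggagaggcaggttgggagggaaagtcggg
FOS: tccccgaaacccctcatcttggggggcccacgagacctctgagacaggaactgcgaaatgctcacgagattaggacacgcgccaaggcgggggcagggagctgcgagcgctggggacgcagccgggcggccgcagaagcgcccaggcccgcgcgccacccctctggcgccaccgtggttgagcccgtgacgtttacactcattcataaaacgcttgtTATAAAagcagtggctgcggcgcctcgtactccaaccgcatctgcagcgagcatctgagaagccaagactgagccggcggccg
H2AC6: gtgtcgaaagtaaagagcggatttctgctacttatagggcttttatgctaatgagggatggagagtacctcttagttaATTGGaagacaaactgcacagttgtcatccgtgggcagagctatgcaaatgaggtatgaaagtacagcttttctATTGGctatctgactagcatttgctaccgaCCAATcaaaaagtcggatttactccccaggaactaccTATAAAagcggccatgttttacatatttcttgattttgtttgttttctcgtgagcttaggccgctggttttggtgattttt
SRSF3: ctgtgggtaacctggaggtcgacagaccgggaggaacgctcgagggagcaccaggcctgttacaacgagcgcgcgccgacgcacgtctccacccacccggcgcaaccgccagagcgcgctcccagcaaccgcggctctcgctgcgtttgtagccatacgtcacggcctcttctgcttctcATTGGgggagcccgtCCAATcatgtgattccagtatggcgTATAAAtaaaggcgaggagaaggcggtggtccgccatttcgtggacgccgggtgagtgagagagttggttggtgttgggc
CCNL1: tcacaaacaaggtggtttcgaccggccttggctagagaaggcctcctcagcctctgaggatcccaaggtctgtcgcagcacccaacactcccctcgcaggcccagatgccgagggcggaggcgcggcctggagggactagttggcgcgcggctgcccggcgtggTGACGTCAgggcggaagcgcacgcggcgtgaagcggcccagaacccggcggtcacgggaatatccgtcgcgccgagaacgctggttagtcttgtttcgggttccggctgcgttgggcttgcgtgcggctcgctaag
GRWD1: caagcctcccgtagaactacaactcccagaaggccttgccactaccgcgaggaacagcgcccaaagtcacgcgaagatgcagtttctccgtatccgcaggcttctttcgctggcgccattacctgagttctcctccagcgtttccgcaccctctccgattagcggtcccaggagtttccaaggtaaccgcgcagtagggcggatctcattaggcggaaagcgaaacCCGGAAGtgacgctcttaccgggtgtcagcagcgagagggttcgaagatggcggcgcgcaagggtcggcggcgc
TATAAA begins 29 bases before the start in HEXIM1, 33 in FOS, 31 in H2AC6 and 30 in SRSF3. CCNL1 holds TGACGTCA 86 bases before its start and GRWD1 holds CCGGAAG 24 bases before its start, and none of the matches overlap each other. Over 22114 genes with a single promoter window, the share with each motif anywhere was 12.7% for TATAAA, 36.2% for CCAAT, 2.01% for TGACGTCA, 7.28% for CACGTG and 10.7% for CCGGAAG.

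On the gene's own strand between 40 and 15 bases before the start, TATAAA stood in 2.63% of promoters of genes higher with KI-CDK9d-32 (47 of 1787), 1.04% of genes lower (21 of 2020), 1.54% of genes not called (36 of 2333) and 2.84% of all windows. Histone promoters held it in 26 of 45 cases and immediate-early promoters in 6 of 14. Anywhere in the 300-base window and on both strands, CCGGAAG was found in 404 of 1787 promoters of genes that were higher, 586 of 2020 lower and 525 of 2333 not called. CACGTG was found in 193, 261 and 224 of them in the same window and order. These matches are letters in a window, no test was made on them, and they show no binding.

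**Figure D2:**
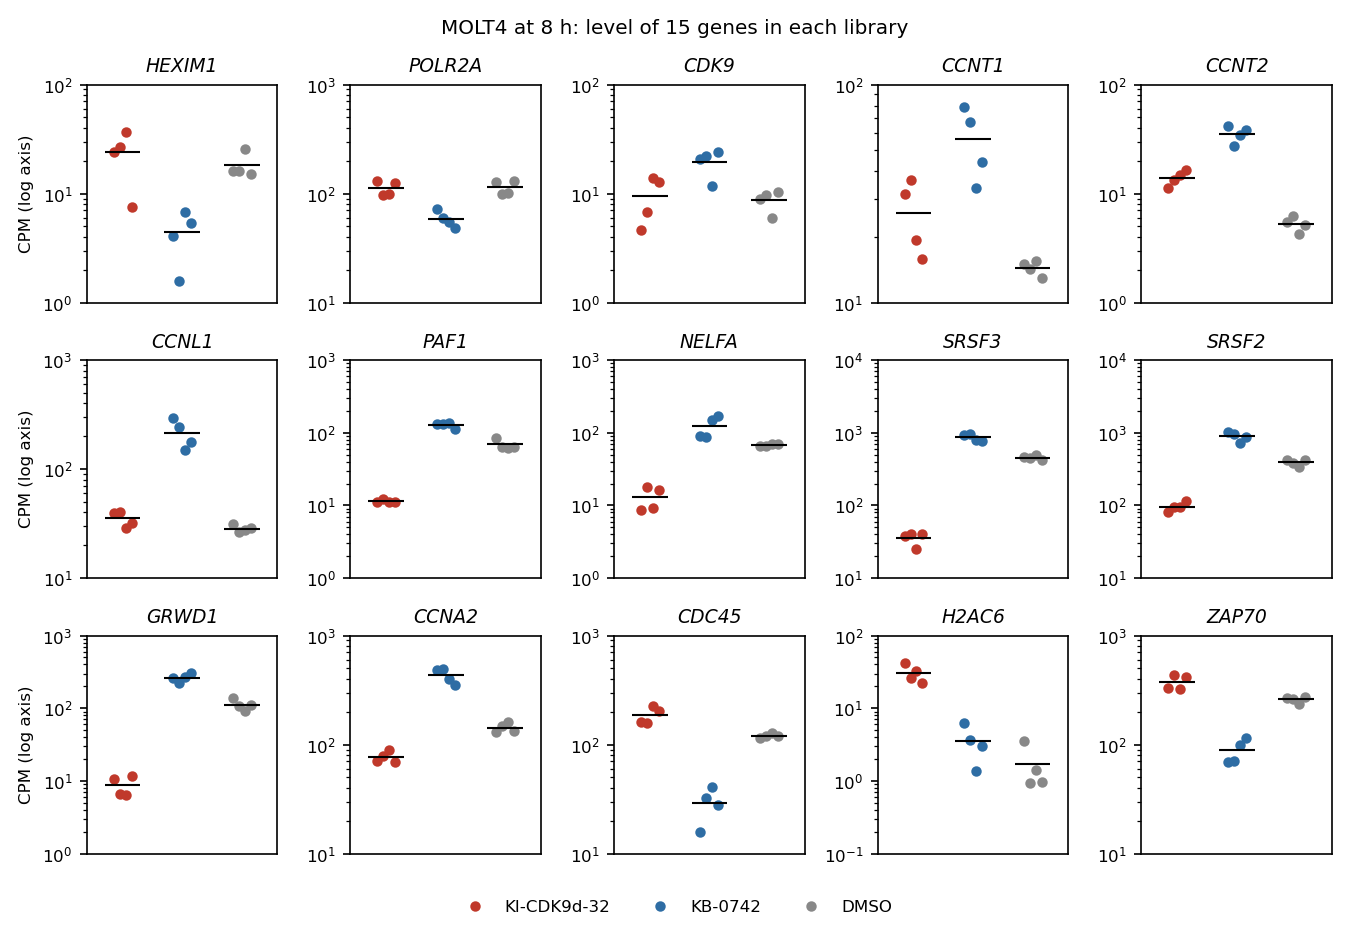
CPM (log axis) of 15 genes in each MOLT4 library at 8 h, with KI-CDK9d-32 left, KB-0742 in the middle and DMSO right; points are libraries and lines are means. Elongation, splicing, ribosome assembly and G2/M genes such as PAF1, SRSF3, GRWD1 and CCNA2 are lower with KI-CDK9d-32 and higher with KB-0742 than with DMSO, while CDC45 and ZAP70 show the reverse order of the compounds (TMM scaling; with spike-in scaling POLR2A takes the opposite direction).

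Genes of the elongation machinery were lower with KI-CDK9d-32: 14 of 20 fell and 4 rose, with a median of -1.08. PAF1, a scaffold of the PAF1 complex that travels with the polymerase, had 11.1, 12.2, 11.1 and 11.1 CPM with KI-CDK9d-32, against 133, 133, 135 and 112 CPM with KB-0742 and 85.8, 63.6, 62.4 and 64.1 CPM with DMSO. Its fold change of -3.49 ± 0.18 (adjusted p = 2.45e-22) came with a fall below DMSO in one arm (-2.59) and a rise above it in the other (0.89). NELFA, a subunit of the pausing factor NELF, had 8.52, 17.7, 9.22 and 16.4 CPM, against 90.8, 86.9, 149.7 and 169 CPM with KB-0742 and 64.8, 66.4, 69.1 and 69.9 CPM with DMSO. Its fold change was -3.22 ± 0.22 (adjusted p = 1.28e-17), again with the 3 groups apart. LEO1, another PAF1 complex subunit, averaged 3.36 CPM against 50.9 CPM (-3.85 ± 0.40), and the elongation factor ELL 7.54 CPM against 35.2 CPM (-2.20 ± 0.36).

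The other transcription kinases and their cyclins were mixed, with 3 of 14 higher, 5 lower and a median of -0.70. CCNL1, the cyclin of CDK11 that is linked to splicing, had 39.98, 40.3, 28.6 and 32.2 CPM with KI-CDK9d-32, against 297, 241, 149 and 176 CPM with KB-0742 and 31.1, 26.5, 27.5 and 28.8 CPM with DMSO. The KI-CDK9d-32 libraries overlapped DMSO while every KB-0742 library lay above both, and the direct fold change was -2.6 ± 0.18 (adjusted p = 1.31e-17). CCNH and CDK7, which belong to the kinase module of TFIIH, fell (-3.93 ± 0.32 and -2.49 ± 0.33). CDK10 rose by 2.07 ± 0.24 under TMM and was not called under spike-in scaling (0.58).

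MYC, the transcription factor named in the study's title, had 50.5, 59.8, 38.7 and 30.4 CPM with KI-CDK9d-32, against 127, 159, 169 and 204 CPM with KB-0742 and 179, 157, 165 and 176 CPM with DMSO. KB-0742 overlapped DMSO and KI-CDK9d-32 lay below both. Of 10 tested members of the MYC-MAX network, 6 fell and none rose, with a median of -1.19. They included MGA (-1.80 ± 0.24), a repressor that pairs with MAX, and MLX (-1.30 ± 0.16), the partner of the glucose-sensing Mondo factors.

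Genes for ribosome assembly, many of them known MYC targets, were lower with KI-CDK9d-32. Of 47 ribosome assembly genes and other MYC targets, 34 fell and 4 rose (median -1.36). GRWD1, a histone and ribosome chaperone, had 10.5, 6.71, 6.46 and 11.7 CPM with KI-CDK9d-32, against 258, 225, 267 and 307 CPM with KB-0742 and 139, 107, 90.9 and 109 CPM with DMSO. The KI-CDK9d-32 libraries lay below both other groups, which did not overlap each other either, with a fold change of -4.87 ± 0.21 (adjusted p = 3.36e-24). WDR43, needed for processing of the small ribosomal subunit, had 11.8, 7.93, 11.99 and 8.19 CPM, against 209, 197, 213 and 197 CPM with KB-0742 and 41.96, 49.3, 51.1 and 54.4 CPM with DMSO (-4.38 ± 0.22, adjusted p = 1.52e-22). It fell by 2.32 against DMSO with KI-CDK9d-32 and rose by 2.05 with KB-0742. NOP16, a nucleolar protein, averaged 24.97 CPM against 328 CPM (-3.71 ± 0.17). SBDS, which releases eIF6 from the large subunit, had 2.62, 0.6103, 0 and 0.585 CPM, against 54.7, 58.1, 34.2 and 43.3 CPM with KB-0742 and 14.2, 16.2, 8.46 and 16.2 CPM with DMSO (-5.50 ± 0.42, adjusted p = 6.62e-16).

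Splicing factors differed in the same direction, with 33 of 49 spliceosome and SR protein genes lower, 8 higher and a median of -0.87. SRSF3, an SR protein that regulates splicing and export, had 38.01, 40.3, 24.9 and 40.9 CPM with KI-CDK9d-32, against 928, 956, 794 and 767 CPM with KB-0742 and 469, 445, 490.5 and 419 CPM with DMSO. The 3 groups were far apart, and the fold change was -4.55 ± 0.11 (adjusted p = 2.71e-35). SRSF2, another SR protein, had 81.9, 94.6, 95.001 and 113 CPM, against 1008, 961, 732 and 872 CPM with KB-0742 and 418, 382, 343 and 419.5 CPM with DMSO (-3.21 ± 0.14, adjusted p = 2.45e-22). PRPF3, a U4/U6 particle protein, had 31.5, 45.2, 30.4 and 22.2 CPM, against 426, 383, 339 and 328 CPM with KB-0742 and 64.6, 66.4, 51.8 and 55.03 CPM with DMSO (-3.51 ± 0.17, adjusted p = 5.5e-23). Its partner PRPF4 fell by 3.32 ± 0.25. Against DMSO under TMM, SRSF3 was at -3.63 for KI-CDK9d-32 and 0.92 for KB-0742, and PRPF3 at -0.88 and 2.63. How much of the direct difference lay with each compound was not tested with spike-in scaling.

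Among the CLK kinases, which phosphorylate SR proteins, 3 fell, with CLK4 at 1.09 CPM against 21.9 CPM (-4.37 ± 0.49), CLK1 at 18.4 against 114 CPM (-2.65 ± 0.21) and CLK2 at 5.08 against 26.5 CPM (-2.37 ± 0.33). Of all 10 CLK, SRPK and DYRK kinases tested, these 3 fell and 1 rose, beside 29.6% of all genes called lower and 28.9% higher. The share that fell is thus near that of all genes. Among 35 genes of 3' end processing and the Integrator, 12 fell and 9 rose (median -0.30), also near the shares of all genes. The poly(A) polymerase PAPOLG (-3.60 ± 0.56), the Integrator subunit INTS12 (-3.18 ± 0.26) and the RNA kinase CLP1 (-2.39 ± 0.28) fell.

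mRNA decay genes were lower too, with 26 of 40 called lower, 4 higher and a median of -0.70. EXOSC4, a core subunit of the RNA exosome, averaged 2.63 ± 2.87 CPM with KI-CDK9d-32, against 87.6 ± 24.005 CPM with KB-0742 and 71.4 ± 5.98 CPM with DMSO (SD, n = 4 each; -5.01 ± 0.30, adjusted p = 9.19e-20). CNOT8, a deadenylase of the CCR4-NOT complex, fell by 2.75 ± 0.19. PAN2, the deadenylase that acts with PAN3, rose by 2.10 ± 0.30 under TMM and was not called under spike-in scaling (0.41).

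Replication-dependent histone mRNAs were higher with KI-CDK9d-32 for 40 of 53 tested genes (of 63 listed) and lower for none, with a median of 1.73. The filter on low counts was passed without the KI-CDK9d-32 libraries of 8 h by 49 of the 53, of which 37 were higher and none lower. H2AC6 had 41.3, 25.6, 32.3 and 22.2 CPM with KI-CDK9d-32, against 6.32, 3.67, 1.35 and 3.04 CPM with KB-0742 and 3.54, 0.935, 1.41 and 0.971 CPM with DMSO. Its KI-CDK9d-32 libraries lay above all others and its fold change was 3.06 ± 0.46 (adjusted p = 1.37e-07). H2BC18 had 26.2, 32.95, 28.6 and 22.8 CPM, against 2.26, 1.05, 3.596 and 6.08 CPM with KB-0742 and 6.27, 5.92, 4.58 and 8.09 CPM with DMSO (3.02 ± 0.41, adjusted p = 1.86e-08). Over the family, KI-CDK9d-32 stood at a median of 1.64 over DMSO and KB-0742 at 0.15. With spike-in scaling the family's median was 0.22, above the all-gene value of -1.46, with 2 genes called higher and 1 lower. At 4 h the family's median was 0.30, and 3 of the 53 were called higher. Most histone mRNAs end in a stem-loop without a poly(A) tail, so a change of level and a change of priming cannot be told apart.

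Other RNAs made without a usual poly(A) tail moved the same way. Of 8 tested small structured RNAs (20 listed) 6 rose and none fell (median 2.78, or 1.41 with spike-ins, where 2 rose). Of the 8, 3 passed the filter on low counts only through the KI-CDK9d-32 libraries of 8 h and could not have been called lower, so these counts are a description. RPPH1, the RNA of RNase P, had 83.2, 90.3, 62.7 and 64.3 CPM with KI-CDK9d-32, against 6.78, 0, 4.495 and 1.52 CPM with KB-0742 and 1.09, 0.935, 2.47 and 0 CPM with DMSO (4.52 ± 0.47, adjusted p = 6.44e-11). SNORD3A, the U3 small nucleolar RNA, averaged 81.1 CPM against 5.82 CPM (3.79 ± 1.02), and its call was lost with DESeq2 and with spike-ins (2.37). Of 10 tested copies of the U2 small nuclear RNA gene on chromosome 17, 7 had no count with KB-0742. The copies are near identical, so the share of reads given to each is uncertain, and no copy is given a value here.

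Early response genes were higher with KI-CDK9d-32 than with KB-0742 for 11 of 19 tested (of 33 listed) and lower for 3, at a median of 1.73. With spike-ins 6 were higher and 6 lower, at a median of 0.13. Of the 19, 3 passed the filter on low counts only through the KI-CDK9d-32 libraries of 8 h, FOS among them, so this count is a description. FOS, which pairs with JUN in the AP-1 factor, had 22.9, 17.1, 34.1 and 5.85 CPM with KI-CDK9d-32, against 0, 0.524, 0 and 0 CPM with KB-0742 and 0.545, 0, 0 and 0.647 CPM with DMSO. A single FOS count stood in the KB-0742 libraries, and the ratio was 166 (95% interval 29.1 to 6607), an interval that covers counting error only. FOSB had 15.7, 9.76, 6.46 and 4.09 CPM, against 0, 1.57, 0 and 0 CPM with KB-0742 and 0.272, 0.312, 0 and 1.29 CPM with DMSO, a ratio of 27.1 (95% interval 8.801 to 136). ID2, an inhibitor of E protein transcription factors, had 147, 82.997, 73.8 and 52.1 CPM, against 2.71, 4.71, 3.15 and 1.8998 CPM with KB-0742 and 2.72, 3.74, 2.47 and 2.27 CPM with DMSO (4.85 ± 0.60, adjusted p = 1.97e-08). In FOS, FOSB and ID2 KB-0742 lay near DMSO and all KI-CDK9d-32 libraries lay above both. Over the family, KI-CDK9d-32 stood at a median of 0.09 over DMSO and KB-0742 at -0.62, so the typical member was not raised over DMSO as these 3 were. GADD45B, a stress-induced growth arrest gene, averaged 7.59 CPM against 0.432 CPM (3.99 ± 0.85). Over DMSO it was at 1.13 with KI-CDK9d-32 and not called (adjusted p = 0.153), and it fell with KB-0742 (-2.85). At 4 h the family's median had been -0.77, with 1 gene higher and 5 lower.

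NF-kB feedback genes did not follow them. Of 5 tested (17 listed), 3 fell and 1 rose: NFKBIA, the main inhibitor of NF-kB, averaged 25.4 CPM against 46.3 CPM (-0.85 ± 0.23), NFKBIB 6.76 against 14.4 CPM (-1.12 ± 0.29), and NFKBIE had no count with KI-CDK9d-32, at least 2.65-fold lower. The stress genes of the ATF4 pathway had 6 of 20 higher and 5 lower, near the 28.9% and 29.6% of all genes. CHAC1, which degrades glutathione, was counted 49 times with KI-CDK9d-32 and 3 times with KB-0742, a ratio of 24.6 (95% interval 7.94 to 123). CEBPG, a partner of ATF4, fell by 2.6 ± 0.42.

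Of 19 p53 targets 8 rose and 5 fell, with a median of 0.92 under TMM and -0.50 under spike-in scaling. CDKN1A, the cell cycle inhibitor p21, averaged 18.4 ± 5.71 CPM with KI-CDK9d-32, against 1.84 ± 1.497 CPM with KB-0742 and 0.845 ± 0.4605 CPM with DMSO (3.31 ± 0.72, adjusted p = 0.000104). DDB2, a DNA damage sensor, averaged 56.5 CPM against 10.4 CPM (2.44 ± 0.27). Neither gene's call held under spike-in scaling with all 4 libraries (1.85 and 0.92).

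Survival and death genes were called about as often as other genes. Of 7 tested anti-apoptotic genes 2 fell and 1 rose, and of 16 pro-apoptotic genes 7 fell and 3 rose, beside 58.5% of all genes called. MCL1, the short-lived BCL2 relative that CDK9 inhibitors are known to reduce, had 7.21, 4.88, 7.38 and 5.85 CPM with KI-CDK9d-32, against 10.4, 11.5, 8.54 and 9.12 CPM with KB-0742 and 6.27, 8.73, 7.399 and 9.71 CPM with DMSO. The KI-CDK9d-32 libraries lay below the KB-0742 libraries, yet at these low counts the fold change of -0.65 ± 0.34 missed the threshold (adjusted p = 0.0908), which does not show that the compounds act alike. With spike-in scaling MCL1 was called lower (-2.20, adjusted p = 0.000672). BCL2L1, which encodes BCL-XL, fell by 0.97 ± 0.16 (adjusted p = 6.02e-07). The death genes DIABLO (-3.49 ± 0.23) and BAK1 (-2.22 ± 0.22) fell.

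Among cell cycle genes, those of G2/M were lower, with 28 of 39 lower, 5 higher and a median of -0.86. CCNA2, the cyclin of S and G2 phases, had 70.8, 78.1, 88.5 and 69.6 CPM with KI-CDK9d-32, against 478, 495, 396 and 352 CPM with KB-0742 and 131, 147, 159.6 and 133 CPM with DMSO (-2.49 ± 0.13, adjusted p = 3.35e-22). PLK1, a mitotic kinase, had 100.3, 137, 113 and 94.2 CPM, against 511, 546, 381 and 348 CPM with KB-0742 and 152, 139, 169 and 146 CPM with DMSO (-2.0 ± 0.14, adjusted p = 2.36e-17). For both, KB-0742 stood above DMSO in every library and KI-CDK9d-32 below it. CCNB2, a mitotic cyclin, fell (-2.6 ± 0.15), as did the kinesin KIF23 (-2.40 ± 0.30).

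Of 50 replication genes 22 were higher and 10 lower under TMM, beside 28.9% and 29.6% of all genes. Their median of 0.19 under TMM and -1.37 under spike-in scaling lay near the 0.04 and -1.46 of all genes. With spike-ins 1 was higher and 29 were lower. CDC45, a part of the replicative helicase, had 163, 157, 227 and 204 CPM with KI-CDK9d-32, against 15.8, 32.5, 40.5 and 28.1 CPM with KB-0742 and 115, 119, 129 and 119.8 CPM with DMSO. KB-0742 lay below both other groups and the fold change was 2.68 ± 0.17 (adjusted p = 9.88e-18), with 1.11 under spike-in scaling, where it stayed called. RFC4, of the clamp loader, had 66.8, 43.3, 59.95 and 47.4 CPM, against 7.68, 12.05, 16.2 and 16.3 CPM with KB-0742 and 64.03, 79.8, 69.4 and 64.7 CPM with DMSO (2.03 ± 0.20, adjusted p = 3.77e-12; 0.45 and not called with spike-ins). CDC6 (-2.36 ± 0.20) and GINS3 (-2.89 ± 0.40), which act in origin licensing and firing, were among those that fell.

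Genes of homologous recombination and Fanconi repair had 12 of 31 higher and 6 lower (median 0.49, or -1.06 with spike-ins). RAD51B, a recombination protein, had 11.8, 11.6, 27.7 and 12.9 CPM with KI-CDK9d-32, against 2.71, 1.05, 1.798 and 4.94 CPM with KB-0742 and 6.27, 6.86, 8.46 and 4.86 CPM with DMSO (2.50 ± 0.45, adjusted p = 5.61e-06; 0.79 and not called with spike-ins). Its KI-CDK9d-32 replicate 3 stood high. FANCL, the ubiquitin ligase of the Fanconi core, rose by 1.97 ± 0.44 (0.50 and not called with spike-ins), and FANCF, an adaptor of the same core, fell by 2.80 ± 0.35.

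Among T-lineage genes more rose than fell under TMM, and none rose with spike-ins. Of 20 tested T-lineage leukemia markers 11 rose and none fell (median 0.67), while with spike-ins 8 fell (median -0.88). Of 35 genes of T-cell receptor and lymphoid signaling 17 rose and 4 fell (median 0.53), while with spike-ins 16 fell (median -0.92). ZAP70, the kinase of the T-cell receptor, had 333, 439, 323 and 414 CPM with KI-CDK9d-32, against 69.1, 70.2, 99.3 and 115 CPM with KB-0742 and 266, 261, 238 and 272 CPM with DMSO. The fold change was 2.09 ± 0.12 (adjusted p = 1.18e-20), with a rise over DMSO under TMM for KI-CDK9d-32 (0.54) and a fall for KB-0742 (-1.54). With spike-ins it was 0.62 and not called. TCF7, a T-cell identity factor, had 1071, 1066, 919.6 and 1156 CPM, against 386, 413, 462 and 494 CPM with KB-0742 and 765, 717, 602 and 744 CPM with DMSO (1.26 ± 0.11, adjusted p = 1.63e-14), but -0.21 with spike-ins, the opposite direction.

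PTPRC, the leukocyte surface phosphatase CD45, rose by 1.42 ± 0.20 and took the opposite direction with spike-ins (-0.13). CD1A (1.66 ± 0.18), CD4 (2.08 ± 0.69) and RAG2 (1.99 ± 0.52) rose under TMM and were not called with spike-ins. Among 21 T-leukemia transcription factors 11 rose and 1 fell, against none and 10 with spike-ins (median 0.42, or -1.04), and the 1 that fell under TMM was MYB, at 14.3 CPM with KI-CDK9d-32, 158 CPM with KB-0742 and 48.2 CPM with DMSO (-3.42 ± 0.20).

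Gene families that serve the mitochondrion moved in opposite directions. All 13 mRNAs of the mitochondrial genome rose (median 1.00, or -0.47 with spike-ins, none then called). All RNA of the mitochondrial genome together made up 24.04 ± 1.52% of gene counts with KI-CDK9d-32, 16.6 ± 1.40% with KB-0742 and 11.6 ± 1.27% with DMSO (SD, n = 4 each). MT-ND5, a subunit of complex I, had 8906, 8097, 9121 and 8066 CPM, against 4327, 4417, 3516 and 3168 CPM with KB-0742 and 1519.9, 1822, 2200.0 and 1609 CPM with DMSO (1.15 ± 0.12, adjusted p = 6.03e-10; -0.34 with spike-ins, the opposite direction). MT-ND6, on the other strand of the mitochondrial genome, rose by 1.32 ± 0.15 (-0.18 with spike-ins). These RNAs are made by a mitochondrial polymerase and not by RNA polymerase II.

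Nuclear mRNAs for mitochondrial ribosomal proteins fell, with 55 of 77 lower, 11 higher and a median of -1.26. MRPL36 had 14.4, 16.5, 21.2 and 16.4 CPM with KI-CDK9d-32, against 185, 189.6, 139 and 156 CPM with KB-0742 and 90.5, 93.2, 76.5 and 66.4 CPM with DMSO (-3.30 ± 0.19, adjusted p = 5.5e-20). MRPS26 had 13.1, 15.9, 13.8 and 15.8 CPM, against 138, 103, 160.0 and 165 CPM with KB-0742 and 182, 162, 167 and 181 CPM with DMSO (-3.26 ± 0.17, adjusted p = 2.64e-22). KB-0742 lay above DMSO for MRPL36 and overlapped it for MRPS26. MRPL35 averaged 1.32 CPM against 21.8 CPM (-3.98 ± 0.40).

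The cytosolic ribosomal proteins, whose mRNAs are long lived, had 57 of 79 members higher and 1 lower, at a median of 0.32 that became -1.17 with spike-ins. At 4 h the direction under TMM was the opposite, with none higher and 64 lower (median -0.25). RPLP0 had 16451, 14458, 15007 and 16078 CPM with KI-CDK9d-32, against 10983, 10464, 9229 and 9090.5 CPM with KB-0742 and 4562, 4479, 4878 and 4505 CPM with DMSO (0.64 ± 0.06, adjusted p = 3.5e-12; -0.83 with spike-ins, the opposite direction). RPS19 behaved likewise (0.61 ± 0.07, and -0.86 with spike-ins).

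Nuclear genes of the respiratory chain itself resembled the cytosolic ribosomal proteins, with 50 of 74 higher and 8 lower (median 0.41, or -1.11 with spike-ins). At 4 h 1 was higher and 23 were lower under TMM (median -0.17). NDUFV1, the flavoprotein of complex I, had 363, 395, 323 and 422 CPM, against 183, 159.8, 165 and 157 CPM with KB-0742 and 196, 161, 161 and 187 CPM with DMSO (1.18 ± 0.10, adjusted p = 8.11e-14; -0.25 with spike-ins, the opposite direction). SDHA, the flavoprotein of complex II, was an exception, at 10.5, 3.66, 11.1 and 15.2 CPM with KI-CDK9d-32, against 49.7, 59.7, 47.2 and 50.2 CPM with KB-0742 and 141, 104, 115 and 116 CPM with DMSO (-2.35 ± 0.24, adjusted p = 1.42e-11). UQCRFS1, the Rieske protein of complex III, also fell (-1.79 ± 0.12). Assembly factors for cytochrome c oxidase were lower in 13 of 23 cases and higher in 7 (median -0.72), and NDUFAF4, a complex I assembly factor, fell by 3.49 ± 0.28. PET117 had 0, 0, 3.69 and 0 CPM, against 59.2, 43.998, 50.3 and 49.4 CPM with KB-0742 and 22.1, 34.3, 33.8 and 22.01 CPM with DMSO. It was counted in only 1 of the 4 KI-CDK9d-32 libraries, and the fold change was -6.13 ± 0.49 (adjusted p = 6.87e-15). COA6 (-3.48 ± 0.24) and TACO1 (-3.34 ± 0.64) fell as well.

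**Figure D3:**
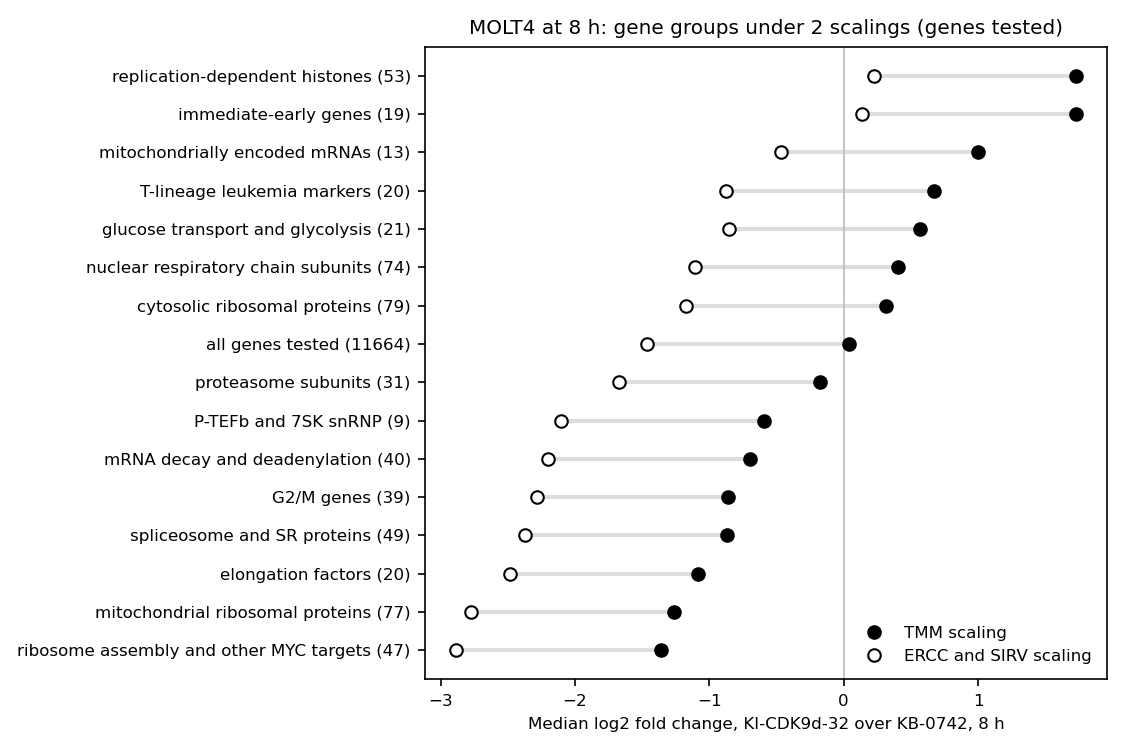
Median log2 fold change of KI-CDK9d-32 over KB-0742 in MOLT4 at 8 h for 15 gene groups and for all genes tested, with TMM scaling (filled) and with spike-in scaling (open); the number of genes tested is in brackets. All medians move down by about the same amount with spike-ins, the all-gene median from filled to open being 0.04 and -1.46, so the 5 groups from mitochondrially encoded mRNAs down to cytosolic ribosomal proteins change sign.

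In metabolism, 12 of 21 genes of glucose transport and glycolysis rose and 4 fell (median 0.57, or -0.86 with spike-ins). The members that fell included the transporter SLC2A1 (3.16 against 28.7 CPM, -3.22 ± 0.39), hexokinase HK2 (-2.50 ± 0.29) and the lactate carrier SLC16A1 (-1.70 ± 0.19), while enolase ENO2 rose (1.98 ± 0.22; 0.57 and not called with spike-ins). Cholesterol synthesis had 9 of 22 genes higher and 7 lower, beside 28.9% and 29.6% of all genes. NSDHL, a sterol dehydrogenase, fell (-1.84 ± 0.25), and LSS, which closes the sterol rings, rose by 2.08 ± 0.24 (0.59 and not called with spike-ins).

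Protein quality control genes gave no single direction. Of 31 proteasome subunits 13 fell and 7 rose, and the ATPase PSMC6 (-2.99 ± 0.21), the deubiquitinase PSMD14 (-2.26 ± 0.16) and PSMD12 (-2.08 ± 0.19) were the lowest. Of 21 heat shock genes 8 fell and 4 rose. DNAJB9, an endoplasmic reticulum cochaperone, had no count in any KI-CDK9d-32 library, against 15.4, 13.6, 19.3 and 13.3 CPM with KB-0742 and 7.902, 10.6, 9.16 and 6.798 CPM with DMSO, which makes it at least 30.5-fold lower. HSF2 (-2.64 ± 0.25), DNAJA1 (-2.52 ± 0.13) and HSPA4 (-1.92 ± 0.14) fell. Of 16 ubiquitin ligase components that degrader molecules can recruit 8 fell and 3 rose, among them the scaffold CUL2 (-2.61 ± 0.29), the conjugating enzyme UBE2G1 (-2.27 ± 0.27) and the cullin exchange factor CAND1 (-1.54 ± 0.23), all lower.

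Of 36 tested interferon-stimulated genes 15 were higher and 5 lower (median 0.56), against 1 and 17 with spike-ins (median -1.13). ISG20, an exonuclease, was counted 82 times with KI-CDK9d-32 and 3 times with KB-0742, a ratio of 41.2 (95% interval 13.6 to 204). OAS2 rose by 2.96 ± 0.80 (1.35 and not called with spike-ins), while TRIM21 fell by 3.56 ± 0.43 and IFIT2 had no count with KI-CDK9d-32, at least 5.09-fold lower. The host transcripts of small nucleolar RNAs had 8 of 20 lower and 5 higher, with SNHG17 (-2.93 ± 0.17), SNHG15 (-2.49 ± 0.14) and SNHG16 (-1.86 ± 0.13) among the lower ones. Of 13 tested genes on the list of nuclear long noncoding RNAs 5 rose and 4 fell, beside 28.9% and 29.6% of all genes. Those that fell include CCNL1, which is protein coding and is also counted with the cyclins above.

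Among well-counted genes without overlap between the groups, the lowest were PSMC1P1, EIF4EP2, DOK1, MSANTD7, PET117, PI4KAP1, MFSD2A, SBDS, VPS18 and NR1D1. DOK1, an adaptor that dampens receptor signaling in blood cells, had no count with KI-CDK9d-32, against 7.23, 2.095, 6.74 and 4.94 CPM with KB-0742 and 17.4, 25.9, 19.7 and 17.8 CPM with DMSO, at least 10.6-fold lower. VPS18, a subunit of lysosomal tethering complexes, had 1.31, 0, 0 and 2.34 CPM, against 55.6, 39.8, 38.7 and 37.6 CPM with KB-0742 and 18.5, 20.6, 10.9 and 26.2 CPM with DMSO (-5.36 ± 0.47, adjusted p = 4.89e-14). NR1D1, the clock repressor REV-ERB alpha, had 0, 1.22, 0 and 1.17 CPM, against 20.3, 38.8, 26.1 and 27.4 CPM with KB-0742 and 14.99, 14.96, 9.87 and 15.2 CPM with DMSO (-5.30 ± 0.50, adjusted p = 4.33e-13). For these 3 genes the KI-CDK9d-32 libraries lay below DMSO too. MFSD2A, a lysophospholipid transporter, was counted in 1 KI-CDK9d-32 library at 1.75 CPM, against 23.04, 16.2, 31.02 and 32.7 CPM with KB-0742 and 11.7, 15.3, 9.16 and 14.6 CPM with DMSO, a ratio of 0.0191 (95% interval 0.00391 to 0.0564). PSMC1P1 had no count with KI-CDK9d-32, against 23.5, 25.1, 23.4 and 29.3 CPM with KB-0742, at least 50.6-fold lower, but as a pseudogene of PSMC1 it can share reads with its parent, and EIF4EP2 and PI4KAP1 are pseudogenes too.

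The highest genes by the same rule were 5 copies of U2, ERVW-1, LINC01550, ID2, RPPH1 and TSPOAP1. ERVW-1, the envelope gene of an endogenous retrovirus that is known from placenta as syncytin-1, had 38.7, 62.2, 71.9 and 67.3 CPM with KI-CDK9d-32, against 1.81, 0, 0 and 0 CPM with KB-0742 and 0, 0, 0 and 0 CPM with DMSO (6.93 ± 0.69, adjusted p = 1.82e-10). Among the 8 h groups only KI-CDK9d-32 could carry ERVW-1 past the filter on low counts, so its values are a description. The noncoding RNA LINC01550 had 98.96, 104, 133 and 118 CPM, against 0.903, 1.05, 4.05 and 6.84 CPM with KB-0742 and 11.7, 9.97, 11.98 and 7.12 CPM with DMSO (5.04 ± 0.33, adjusted p = 1.89e-18). TSPOAP1, a protein that binds the mitochondrial translocator protein, had 69.5, 96.4, 119.9 and 106 CPM, against 5.87, 3.14, 6.74 and 1.8998 CPM with KB-0742 and 12.5, 10.3, 11.3 and 14.6 CPM with DMSO (4.47 ± 0.31, adjusted p = 3.38e-17). For LINC01550 and TSPOAP1 the order was KI-CDK9d-32, DMSO and KB-0742, with no overlap between the compounds.

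The longest genes were higher with KI-CDK9d-32 under TMM. Of 137 tested protein-coding genes that span more than 400 kb, 87 were higher with KI-CDK9d-32 (63.5%) and 5 lower (3.65%), beside 29.8% and 31.3% of all 9907 protein-coding genes tested. Their median was 1.22, against 0.01 over all protein-coding genes, and -0.29 against -1.49 with spike-in scaling. For these long genes KI-CDK9d-32 stood at a median of 0.63 over DMSO and KB-0742 at -0.74, comparisons that share the DMSO libraries. Genes of 200 to 400 kb had a median of 0.60 (181 of 445 higher and 66 lower), while the shorter classes had medians of -0.14 to 0.23. The shortest, under 5 kb, had 307 of 786 higher (39.1%) and 237 lower, at a median of 0.23. At 4 h the median of genes over 400 kb was 0.63, and at 8 h it was 0.47 in PSN1 and 0.32 in RH4. The span came from GENCODE 29, and the counts do not separate unspliced from spliced RNA.

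LPP, a 737 kb gene for an adhesion protein, had 83.9, 82.4, 109.8 and 108 CPM with KI-CDK9d-32, against 29.4, 20.4, 17.1 and 27.7 CPM with KB-0742 and 20.4, 20.6, 19.7 and 32.4 CPM with DMSO (2.01 ± 0.20, adjusted p = 5.63e-12; 0.51 and not called with spike-ins). ZBTB20 (833 kb), a zinc finger repressor, had 17.7, 24.4, 34.1 and 23.98 CPM, against 3.61, 2.095, 1.35 and 3.7996 CPM with KB-0742 and 4.36, 4.99, 4.23 and 4.53 CPM with DMSO (3.15 ± 0.45, adjusted p = 4.56e-08). Every KI-CDK9d-32 library lay above DMSO for both genes, while KB-0742 overlapped DMSO for LPP and lay below it for ZBTB20. ARHGAP15 (677 kb), a Rac GTPase-activating protein of leukocytes, had 103, 82.4, 101 and 110.0 CPM, against 40.2, 29.3, 40.9 and 38.4 CPM with KB-0742 and 52.9, 50.5, 57.4 and 53.7 CPM with DMSO (1.41 ± 0.16, adjusted p = 8.38e-11; -0.08 with spike-ins, the opposite direction). Of the 20 longest protein-coding genes with an average log2 CPM of 3 or more, 16 were called higher and none lower. The 16 included TBC1D5 (1.43 ± 0.26) and DPYD (1.65 ± 0.29), which were not called with spike-ins. Grouped by exon number instead, 157 genes with 1 exon had a median of -0.30 (55 higher and 64 lower), 236 genes with 2 exons -0.83 (30 higher and 104 lower) and 171 genes with more than 40 exons 0.39 (65 higher and 33 lower).

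**Figure D4:**
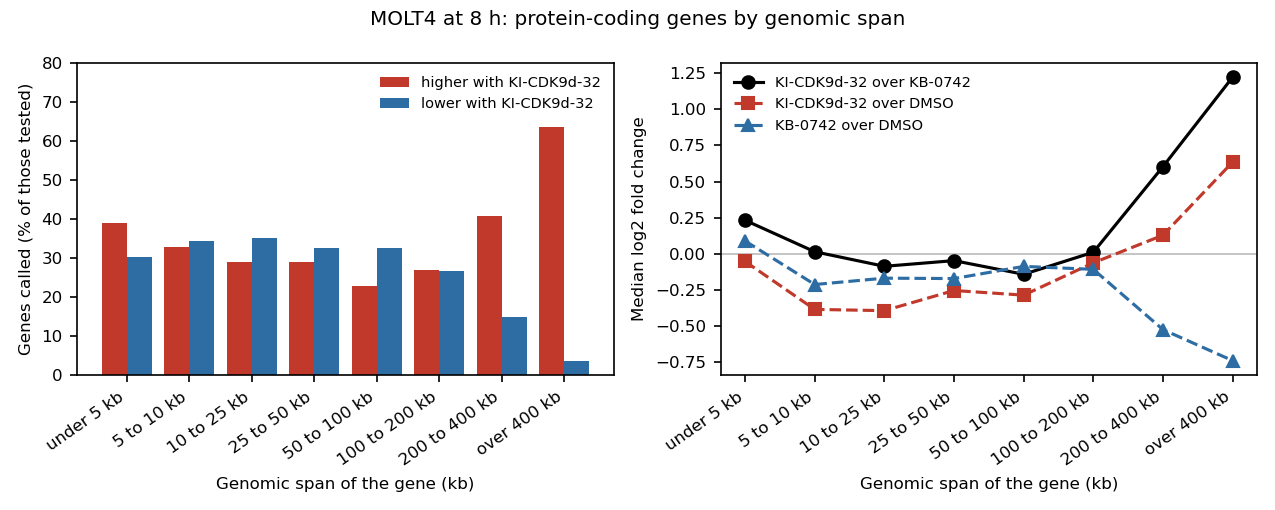
Protein-coding genes tested in MOLT4 at 8 h, by genomic span in kb: share called higher or lower with KI-CDK9d-32 than with KB-0742 (left, %) and median log2 fold change of the direct comparison and of each compound over DMSO (right, TMM scaling). In genes over 400 kb 63.5% are higher and 3.65% lower, and the medians over DMSO lie at 0.63 for KI-CDK9d-32 and -0.74 for KB-0742; the direct median of 1.22 becomes -0.29 with spike-in scaling.

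Some genes were counted with KI-CDK9d-32 and not in the other groups. With at least 3 counts in each of the 4 KI-CDK9d-32 libraries and none in the KB-0742 and DMSO libraries, 45 genes met the rule, and no gene met its mirror image with KB-0742. A minimum of 10 counts left 12. The 45 and the 12 both include near identical U2 copies, for which the share of reads given to each is uncertain. At 4 h the same rule gave 24 genes for KI-CDK9d-32 and 3 for KB-0742. The rule was set after values had been seen, and these genes differ by construction. Of the 45, 40 were also counted with KI-CDK9d-32 at 4 h and 7 with KB-0742 at 4 h. Libraries that the rule did not use had more counts with KI-CDK9d-32 than with KB-0742 for 36 of the 38 with a count in PSN1 at 8 h (94.7%) and for 34 of 38 in RH4 (89.5%). Among other genes without counts in the KB-0742 and DMSO libraries of MOLT4, the same held for 4477 of 7012 in PSN1 (63.8%) and 5281 of 7555 in RH4 (69.9%).

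Some of the 45 are known from other tissues. MPO, the peroxidase of myeloid cells, had 15.7, 15.3, 19.4 and 18.7 CPM in the KI-CDK9d-32 libraries and no count elsewhere at 8 h, at least 51.2-fold higher. ACTC1, cardiac actin, had 12.5, 12.2, 20.3 and 9.94 CPM, at least 39.2-fold higher, and CHRNA1, a muscle acetylcholine receptor subunit, 9.83, 10.4, 5.53 and 8.77 CPM, at least 26.6-fold higher. In RH4, a rhabdomyosarcoma line, ACTC1 had 6355 counts with KI-CDK9d-32, 6731 with KB-0742 and 11669 with DMSO. The MOLT4 libraries had no count of the muscle regulators MYOD1, MYOG, MYF5 and PAX3, or of DES, a muscle filament protein, with KI-CDK9d-32. Of 18 myogenic markers 12 were at 0 with KI-CDK9d-32, and 4 passed the filter on low counts and were higher, namely ACTC1, CHRNA1, MYH3 (3.71 ± 1.00; 2.0 and not called with spike-ins) and MYL4 (0.89 ± 0.23, or -0.64 with spike-ins, the opposite direction). ACTC1, CHRNA1 and MYH3 passed that filter through KI-CDK9d-32 libraries alone. The summed myogenic level was 78.6 to 95.9 CPM with KI-CDK9d-32, 25.3 to 33.3 CPM with KB-0742 and 10.9 to 26.2 CPM with DMSO, and the part of other cells in these counts was not tested.

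The position of these genes is given beside that of other silent genes, without a test. Of the 30 protein-coding genes among the 45, 17 (56.7%) began within 100 kb downstream of a gene on the same strand that was expressed at 5 CPM or more with DMSO. Among 6024 other protein-coding genes without counts in KB-0742 and DMSO libraries and with such a gene upstream, 1336 (22.2%) did. The median gap to the upstream gene was 59.5 kb for the 30 genes and 403.5 kb for the other 6024. MPO lies 20.3 kb beyond TSPOAP1, CHRNA1 11.4 kb beyond CHN1, CDKL2 12.1 kb beyond G3BP2 and IL17F 19.5 kb beyond MCM3. Whether reads ran on from the neighboring gene was not tested, since the files hold counts per gene.

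The 8 h pattern had partly formed at 4 h, which used separate libraries. Of the 3374 genes higher at 8 h, 1064 (31.5%) were called higher at 4 h, which is 62.3% of the 4 h list, and of the 3449 lower genes 1879 (54.5%) were called lower at 4 h, 76.5% of that list. Over all 11664 genes, 1707 were called higher and 2457 lower at 4 h. A test of the difference itself, 8 h minus 4 h, called 3218 genes (27.6%), with 1647 changed upward and 1571 downward, or 14 and 5212 with spike-in scaling. POLR2A differed by 0.02 at 4 h and 0.96 at 8 h, a change of 0.93 ± 0.22 (adjusted p = 0.00081). TUBG2, a gamma-tubulin gene, changed by 3.12 ± 0.59 (adjusted p = 3.88e-05). CDK9, CCNT1, CCNT2, HEXIM1 and MCL1 did not pass this test. The compound difference of MYC was -3.78 at 4 h and -1.87 at 8 h, a change of 1.91 ± 0.24 (adjusted p = 1.65e-08).

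In the other lines the same 2 compounds at 8 h differed less in count of genes. A joint fit of 12450 genes called 20.1% in PSN1, a pancreatic carcinoma line, and 28.6% in RH4. Of 2933 genes higher in MOLT4 in that fit, 690 (23.5%) were also higher in PSN1, 56.5% of the PSN1 list, and 849 (28.9%) in RH4, 47.97% of the RH4 list. Called in the opposite direction were 26 of them in PSN1 and 203 in RH4. Of 3165 lower genes 971 (30.7%) were lower in PSN1, 75.9% of the PSN1 list, and 1132 (35.8%) in RH4, 63.3% of the RH4 list. Over all 12450 genes, 1221 were called higher and 1280 lower in PSN1, and 1770 and 1787 in RH4. Spike-in shares overlapped between the compounds there. PSN1 averaged 17.3 ± 2.28% for KI-CDK9d-32 libraries and 17.1 ± 3.58% for KB-0742 libraries (exact permutation p = 0.943), and RH4 averaged 12.9 ± 2.03% and 15.1 ± 2.22% (exact permutation p = 0.257; SD, n = 4 each).

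Tests of the difference between lines called 2556 genes for MOLT4 minus PSN1 (20.5%; 897 upward and 1659 downward) and 3229 for MOLT4 minus RH4 (25.9%; 1320 and 1909). Without KI-CDK9d-32 replicate 3 of MOLT4 these splits were 1372 and 1332 for PSN1 and 1748 and 1432 for RH4. Without KB-0742 replicate 1 of MOLT4 they were 1190 and 1244, and 1649 and 1380. Without its KB-0742 replicate 2 they were 835 and 1578, and 1216 and 1845. The splits thus depended on which libraries were in the fit, and not on KI-CDK9d-32 replicate 3 alone. With spike-ins they moved to 71 and 4794 and to 76 and 7644. MCL1 was at -0.66 in MOLT4 and 0.78 in PSN1, a difference of -1.44 ± 0.40 (adjusted p = 0.00791). ERVW-1 was at 0.69 in PSN1, a difference of 6.17 ± 1.48 (adjusted p = 0.0053). CCNT2 was at -0.17 in RH4, a difference of -1.18 ± 0.35 (adjusted p = 0.00998). The compound difference of MYC in the joint fit was -1.88 in MOLT4, -0.52 in PSN1 and -0.53 in RH4. MOLT4 differed by -1.36 ± 0.26 from PSN1 (adjusted p = 0.000125) and by -1.36 ± 0.29 from RH4 (adjusted p = 0.00044). CCNT1, CDK9, POLR2A and HEXIM1 did not pass either test of lines.

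Gene groups showed which parts of the MOLT4 pattern were shared. Spliceosome and SR genes were lower in all 3 lines, namely 33 of 48 for MOLT4, 26 for PSN1 and 28 for RH4 (medians -0.89, -0.47 and -0.61). Ribosome assembly genes were lower for 33 of 47 members with MOLT4 cells, 17 with PSN1 and 21 with RH4. Of 47 histone genes 35 rose for MOLT4, 5 for PSN1 and none for RH4, where some of them had no count with either compound. Mitochondrial ribosomal proteins fell for 52 of 77 genes of MOLT4, 4 of PSN1 and 9 of RH4, and rose for 10, 6 and 18. The 13 mitochondrially encoded mRNAs rose in MOLT4 (13 of 13), gave no call in PSN1 and fell in RH4 (11 of 13). These group counts carry no test of their own, and all 3 lines were scaled by TMM.

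**Figure D5:**
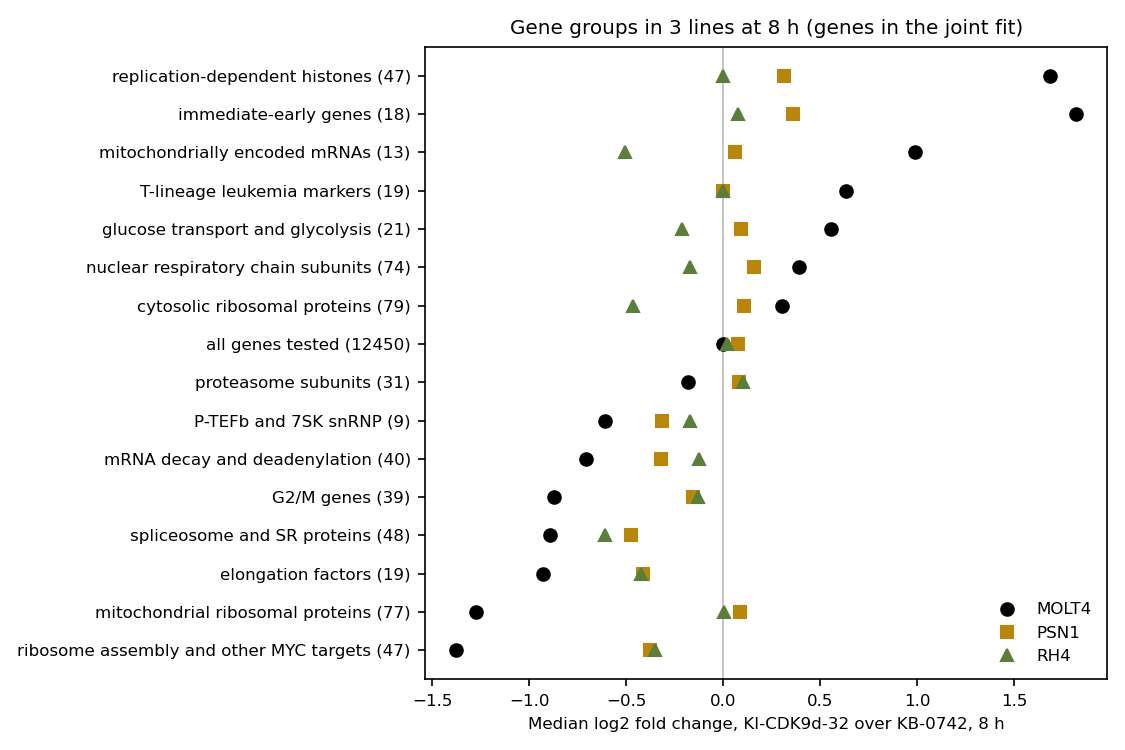
Median log2 fold change of KI-CDK9d-32 over KB-0742 at 8 h in MOLT4, PSN1 and RH4 (TMM scaling) for 15 gene groups and all genes, with the number of genes in brackets. Splicing and ribosome assembly genes lie left of 0 in all 3 lines, while histones lie at 1.68, 0.31 and 0 and mitochondrial ribosomal proteins at -1.27, 0.08 and 0.00 in MOLT4, PSN1 and RH4.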

How the data were processed

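RNA was measured with a reduced-volume SMART-seq2 protocol and Nextera XT libraries, per the labels' protocols. Cells were seeded at 1000 per well, and about 30 pg of Lexogen SIRV mix with ERCC standards was added to the thawed lysate before 1 ng of total RNA was taken on. The protocol marks neither strand nor molecules. The authors deposited estimated counts per gene, with Salmon and hg38 named in the submitters' processing notes; the Salmon version and the annotation are not given in the sources used here. The deposited log2 values are log2(TPM + 1) with spike-ins in the total; they were turned back to TPM, rescaled to 1000000 over gene rows and used only to set HEXIM1 beside CCNT1 within a group.

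Estimated counts were rounded, and 92 ERCC, 7 SIRV and 47 pseudoautosomal Y rows were kept out of tests and gene totals, leaving 62710 gene rows. All 35 MOLT4 libraries entered 1 fit in edgeR 4.0.16 (R 4.3.3): filterByExpr with a minimum count of 10 (11664 genes kept, with 0.312 to 0.551% of gene counts left out), TMM, robust quasi-likelihood fits and Benjamini-Hochberg adjustment at 0.05. A second fit joined the 8 h libraries of the 3 lines. The procedure was tested on simulated data. Alternatives were spike-in and RLE scaling, DESeq2 1.42.0, other filters, other sets of libraries, a test against a 1.5-fold change, a replicate block and leaving out each library. Where a group had no count, a bound used a floor of 3 counts over the group. Bounds and 95% ratio intervals cover counting error only. Spike-in shares were compared with exact permutation tests (scipy 1.17.1). Spans and exon numbers came from GENCODE 29, which matched 58274 rows, and promoters from RefSeq.

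The members and the 41 gene lists (1166 genes) were chosen with earlier results of these data known. Genes named were CDK9, CCNT1, CCNT2, HEXIM1, MYC, MCL1 and POLR2A, the 10 highest and 10 lowest called genes (no overlap, average log2 CPM 3 or more), up to 4 called members of each list by size, and up to 3 a side in the differences. Further list members, such as RPLP0, TCF7, LPP and FOSB, were added after their values were seen. List members that leaving out 1 library made lose their call, and extremes that are pseudogenes, uncharacterized or at 3 counts or fewer in a group of the difference, are not described. Some genes that the rule chose are not reported here, though list counts and counts over named genes include them.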

Additional observations from a re-analysis of the deposited data

Results flagged for a closer look

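Of 112 gene and group combinations of 4 libraries checked with Dixon's ratio at its 95% critical value, 10 held a library far from the other 3, where chance gives about 1 in 20. With KI-CDK9d-32 these were PAF1 at 12.2 CPM in replicate 2, PET117 at 3.69 CPM in replicate 3, MFSD2A at 1.75 CPM in replicate 4, RAD51B at 27.7 CPM in replicate 3, and the mitochondrial share of gene counts at 26.3% in replicate 1. With KB-0742 they were PAF1 at 112 CPM in replicate 4, VPS18 at 55.6 CPM in replicate 1, FOS at 0.524 CPM and FOSB at 1.57 CPM in replicate 2, and ERVW-1 at 1.81 CPM in replicate 1. PAF1, FOS, FOSB, MFSD2A and ERVW-1 stand out because the other 3 libraries are equal or nearly so.

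The compound difference itself differed between 8 h and 4 h in 3218 genes, between MOLT4 and PSN1 in 2556 and between MOLT4 and RH4 in 3229, by edgeR's quasi-likelihood test of the interaction with Benjamini-Hochberg adjustment. Between 8 h and 4 h, MYC changed by 1.91, POLR2A by 0.93 and TUBG2 by 3.12 on the log2 scale. MOLT4 minus PSN1 was -1.36 for MYC, -1.44 for MCL1 and 6.17 for ERVW-1. MOLT4 minus RH4 was -1.36 for MYC and -1.18 for CCNT2. A further 16 named differences rest on a group with 3 counts or fewer and are given no value.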

How the results depend on the processing

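Spike-in scaling was the choice that moved results most. It called 274 genes higher and 6390 lower at 8 h, 6664 in all (6689 with ERCC alone, 5515 without KI-CDK9d-32 replicate 3), against 3374 and 3449 with TMM. The change between 8 h and 4 h then called 5226 genes (5294 with ERCC alone, 3927 without that replicate), MOLT4 against PSN1 4865 and MOLT4 against RH4 7720. With ERCC and SIRV, ERCC alone, and both without replicate 3, the log2 fold change turned to -0.48, -0.47 and -0.18 for POLR2A, -0.34, -0.33 and -0.0857 for MT-ND5, -0.83, -0.81 and -0.55 for RPLP0, -0.86, -0.85 and -0.59 for RPS19 and -0.64, -0.63 and -0.38 for MYL4. With ERCC and SIRV and with ERCC alone, it turned to -0.21 and -0.19 for TCF7, -0.25 and -0.24 for NDUFV1, -0.0809 and -0.0685 for ARHGAP15, -0.13 and -0.12 for PTPRC and -0.18 and -0.17 for MT-ND6. The spike-in share difference of 18.4 percentage points was 13.6 with ERCC and 4.89 with SIRV alone. It ranged from 11.3 to 22.4 points with 1 library left out, where the smallest exact p is 0.0571. The lowest value was that without KI-CDK9d-32 replicate 3.

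Other settings called 6939 genes at 8 h with RLE scaling, 7008 with DESeq2, 7191 with no filter on low counts, 4734 with a minimum count of 50 and 4747 against a 1.5-fold change. Fits of fewer libraries, and so of fewer genes, called 4948 with the 8 libraries and 5823 with the 12 of 8 h, and leaving out 1 library 6412 to 6573. Without a filter the change from 4 h called 1101 genes upward and 1687 downward. Of 2462 alternatives for 132 named genes, 2366 kept direction and call and 68 lost the call (62 with spike-ins). None lost it when 1 library was left out, but list members that did so had been dropped beforehand. That result follows at least in part from the choice of genes and is no measure of stability. The 1.5-fold test lost CDK9, RPLP0, RPS19, NFKBIA and MYL4.

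Same-numbered libraries of the compounds deviated with correlations of -0.02 to 0.04 after TMM scaling, so relative gene levels gave no sign of pairing. That check does not cover spike-in shares, where replicate 4 was lowest with KI-CDK9d-32 (28.1%), KB-0742 (18.9%) and DMSO (11.7%) at 8 h. The permutation test of spike-in shares treated the libraries as unpaired. A replicate block called 6750 genes at 8 h, 3131 for the change from 4 h, 2649 against PSN1 and 3267 against RH4. Low counts limit genes such as MCL1, and the lowest bound is 2.65-fold, for NFKBIE.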

Other observations

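Gene families read from symbols alone, chosen after values were seen, gave further medians of KI-CDK9d-32 over KB-0742 at 8 h in MOLT4, beside 0.04 for all genes. Zinc finger genes with ZNF symbols were lower in 188 of 405 cases and higher in 33 (median -0.84, or -2.38 with spike-ins). RING finger genes (RNF) were lower in 33 of 56 and higher in 9, RNA-binding RBM genes lower in 19 of 35 and higher in 5, and Mediator subunits (MED) lower in 15 of 30 and higher in 4. In the other direction, genes with CD symbols, many of them surface antigens, were higher in 21 of 44 and lower in 6 (median 0.57, or -0.96 with spike-ins). Solute carriers (SLC) were higher in 53 of 174 cases (30.5%), near the 28.9% of all genes, and lower in 37 (median 0.33, or -1.15). These counts are descriptions without a test.

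Gene totals differed in how many genes were detected. KI-CDK9d-32 libraries had 14068 to 15865 genes with a count in MOLT4, against 14676 to 15534 with KB-0742 and 15646 to 16519 with DMSO. In RH4 at 8 h the ranges were 18219 to 19167 with KI-CDK9d-32, 15392 to 16461 with KB-0742 and 17783 to 18602 with DMSO. In PSN1 they were 17784 to 18364, 16277 to 16540 and 16425 to 18826. The 50 most counted genes took 49.9 ± 1.77% of MOLT4 gene counts with KI-CDK9d-32, 40.5 ± 2.28% with KB-0742 and 30.2 ± 0.721% with DMSO (SD, n = 4 each).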
